A study of Homo sapiens with 6 samples.

Results

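The APOBEC3 genes encode 7 cytidine deaminases in human cells, and all 7 were rows of the deposited table of 17891 genes. They were taken by gene symbol: APOBEC3A, APOBEC3B, APOBEC3C, APOBEC3D, APOBEC3F, APOBEC3G and APOBEC3H. Their transcripts were compared in T47D cells, an established luminal, estrogen receptor-positive breast cancer line. T47D-PRL cells carried a puromycin-selectable PLVX lentivirus with PRL, the gene for the hormone prolactin (3 libraries), and T47D-PLVX control cells carried the lentivirus without it (3 libraries). All cells had therefore been exposed to a lentivirus and, as far as the labels say, to the same selection, and all were grown for 2 days in RPMI medium with serum. The labels call the replicates biological but do not say whether they came from separate transductions or clones, nor which promoter drove PRL, so p-values measure the spread between these cultures. Of the 7 genes, 6 passed the filter on low counts and were tested. APOBEC3H did not.

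APOBEC3 proteins remove the amino group from cytidine in single-stranded DNA, which leaves uracil. They restrict retroviruses and endogenous retroelements, and several of the genes are induced by interferon. APOBEC3A and APOBEC3B act in the nucleus and are known as sources of C-to-T and C-to-G mutations in breast tumours. APOBEC3A, APOBEC3C and APOBEC3H have a single deaminase domain, whereas APOBEC3B, APOBEC3D, APOBEC3F and APOBEC3G have a pair of domains.

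The members are close relatives, and reads from the most similar stretches cannot be placed in 1 gene by sequence alone. The closest pair was APOBEC3A and APOBEC3B, whose coding sequences were 93.1% identical over 580 aligned columns and held an identical run of 196 bases. APOBEC3C was 90.5% identical to APOBEC3D and 90.3% to APOBEC3F, with identical runs of at most 73 and 81 bases. APOBEC3D and APOBEC3F were 87.1% identical and held an identical run of 222 bases. The runs of APOBEC3A with APOBEC3B and of APOBEC3D with APOBEC3F are shown with 20 bases on each side, because the expected counts of both pairs depend on how reads within them were divided. They are spliced coding sequence on the + strand of GRCh38, from GENCODE 29, so each genome span includes introns. Capitals mark the bases that differ between the 2 genes of a pair, 5 in the first pair and 4 in the second. The spans are chr22:38959665-38961600 for APOBEC3A, chr22:38989589-38991545 for APOBEC3B, chr22:39029474-39031909 for APOBEC3D and chr22:39049536-39052289 for APOBEC3F.
APOBEC3A: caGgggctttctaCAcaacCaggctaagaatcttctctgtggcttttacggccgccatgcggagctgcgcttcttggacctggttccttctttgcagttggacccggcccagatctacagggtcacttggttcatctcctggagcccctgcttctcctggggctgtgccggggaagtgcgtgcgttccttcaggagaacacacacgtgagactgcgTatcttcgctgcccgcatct
APOBEC3B: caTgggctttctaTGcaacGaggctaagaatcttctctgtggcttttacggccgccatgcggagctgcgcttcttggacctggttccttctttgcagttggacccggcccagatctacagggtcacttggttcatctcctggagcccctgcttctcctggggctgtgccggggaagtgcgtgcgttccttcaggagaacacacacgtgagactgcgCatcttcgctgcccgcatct
APOBEC3D: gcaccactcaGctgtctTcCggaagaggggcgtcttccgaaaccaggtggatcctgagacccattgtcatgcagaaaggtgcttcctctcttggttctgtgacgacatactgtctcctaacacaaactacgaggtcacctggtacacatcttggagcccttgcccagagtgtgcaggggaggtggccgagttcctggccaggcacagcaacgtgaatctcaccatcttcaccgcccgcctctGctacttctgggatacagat
APOBEC3F: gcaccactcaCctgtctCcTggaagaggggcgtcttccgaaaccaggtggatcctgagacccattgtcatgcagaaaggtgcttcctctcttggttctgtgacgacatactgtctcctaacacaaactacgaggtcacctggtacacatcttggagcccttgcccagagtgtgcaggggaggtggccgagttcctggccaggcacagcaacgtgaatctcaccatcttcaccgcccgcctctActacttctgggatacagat

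Sharing extended beyond these windows and differed between members. Among windows of 100 bases along each principal transcript, 21.3% of those of APOBEC3B, 13.5% of APOBEC3F, 12.6% of APOBEC3A, 11.3% of APOBEC3G and 9.18% of APOBEC3D were found unchanged in another member. APOBEC3C and APOBEC3H shared 0 windows of that length with another member. At 50 bases the shares were 35.9% for APOBEC3B, 24.0% for APOBEC3F and 1.16% for APOBEC3C. APOBEC3A and APOBEC3B also overlap on the chromosome: transcript APOBEC3A-205 ends in an exon of 348 bases, chr22:38992431-38992778, that lies within the last exon of APOBEC3B. An antisense gene, APOBEC3B-AS1, overlaps 12.9% of APOBEC3B exon bases, and a transcript that reads through from APOBEC3C, AL022318.4, overlaps 83.2% of APOBEC3D exon bases. Both were not analysed here, and the use of strand in counting was not given. The deposited expected counts were not whole numbers in 6 of 6 libraries for APOBEC3A, APOBEC3B, APOBEC3D, APOBEC3F and APOBEC3G, in 5 for APOBEC3C and in 2 for APOBEC3H. Single values of the paralog pairs are therefore uncertain, and their sums are given beside them.

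Library totals lay between 16211146 and 16646457 expected counts in PRL cells and between 16432849 and 17402348 in control cells. PRL itself had 8277, 8097 and 7789 counts in the libraries labelled PRL, against 3, 3 and 1 in the libraries labelled control. Of 14076 genes tested, 4554 were higher (32.4%) and 4300 lower (30.5%) in PRL cells, so 62.9% of all tested genes passed. With TMM scaling, which assumes that most genes do not change, factors were 1.08 to 1.11 in PRL libraries and 0.848 to 0.955 in control libraries. With library totals in its place, 6431 genes were higher and 2394 lower. The scaling bears on small fold changes most, and is named where it decides a call.

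APOBEC3A and APOBEC3C transcripts were lower in PRL cells, and no member was called higher. APOBEC3A fell to 0.273 of its control level and APOBEC3C to 0.148 of its own, as ratios of summed counts scaled to library size. APOBEC3B, APOBEC3D, APOBEC3F and APOBEC3G did not pass the test. By edgeR's quasi-likelihood test with Benjamini-Hochberg adjustment over 14076 genes, 2 of 6 tested members were lower, where 30.5% of all tested genes were, and 0 were higher, where 32.4% were. APOBEC3C passed the filter on low counts only through its control libraries, so it could hardly have been called higher. The count of 0 also held in DESeq2 and limma-voom, and at an unadjusted p under 0.05 it was 1 in edgeR, 0 in DESeq2 and 1 in limma-voom. The median log2 fold change of the 6 was −0.41, against 0.01 over all tested genes. These are bulk libraries, so fewer cells with a transcript and less of it per cell cannot be told apart.

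**Figure D1:**
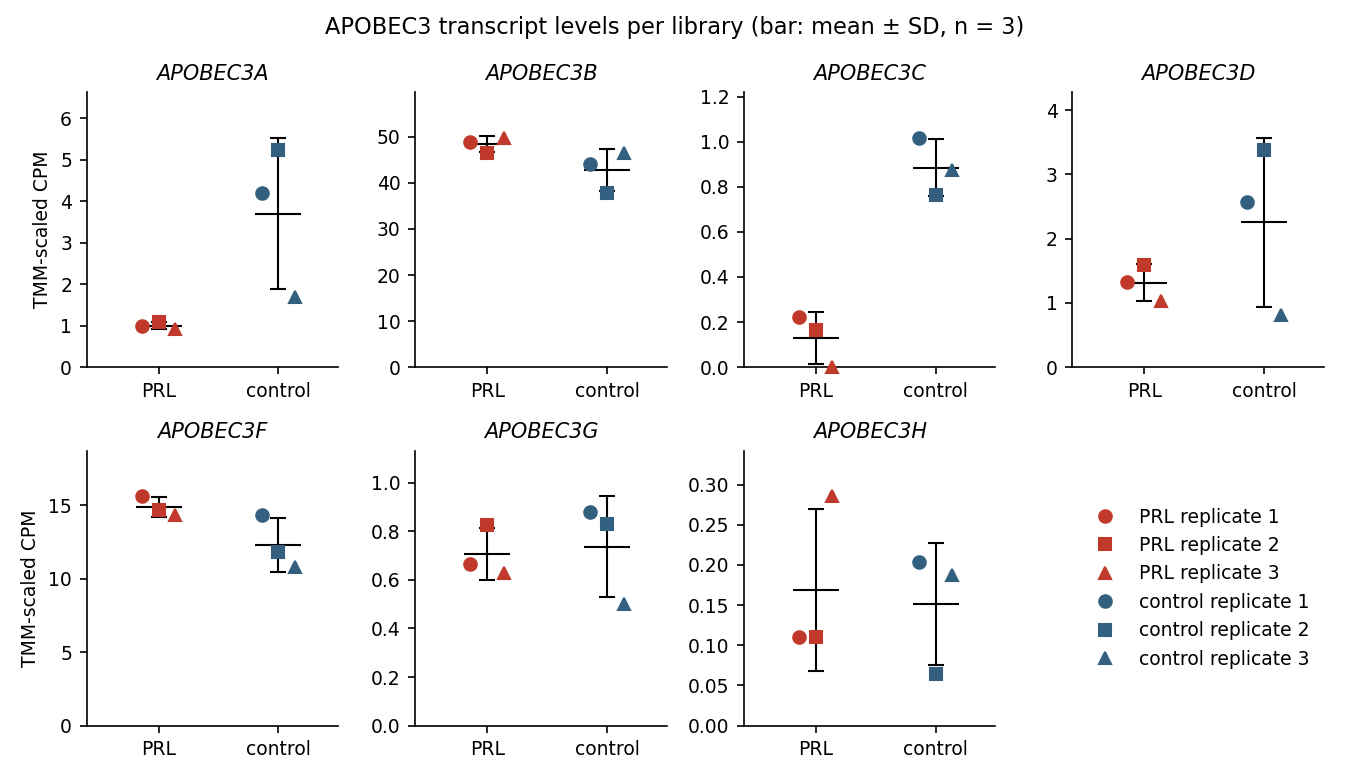
TMM-scaled CPM (vertical axis, linear, its own range in each panel) of the 7 APOBEC3 transcripts in 3 PRL and 3 control libraries, with the mean and SD of each group (n = 3). All 3 PRL libraries lie below all 3 control libraries for APOBEC3A and APOBEC3C, and the groups overlap for the other 5 members.

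APOBEC3B made up most of the family's transcript level in both groups. Levels of different genes are compared in the deposited FPKM, which are scaled to transcript length. APOBEC3B had 35.03, 33.05 and 34.89 FPKM in PRL libraries, against 24.23, 23.72 and 28.52 FPKM in control libraries. Its share of the summed FPKM of the 7 members was 82.9% ± 0.459 in PRL cells and 75.6% ± 6.87 in control cells (SD, n = 3 each). The control libraries were spread widely, at 71.4%, 71.8% and 83.5%, and the highest of them exceeded all 3 PRL libraries. The summed FPKM of the family was 42.21, 40.13 and 41.91 in PRL libraries, against 33.92, 33.03 and 34.15 in control libraries, so the groups did not overlap. That difference depends on the scaling: the summed TMM CPM of the members was 64.9 to 67.8 in PRL libraries and 59.8 to 67.2 in control libraries, which overlap.

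**Figure D2:**
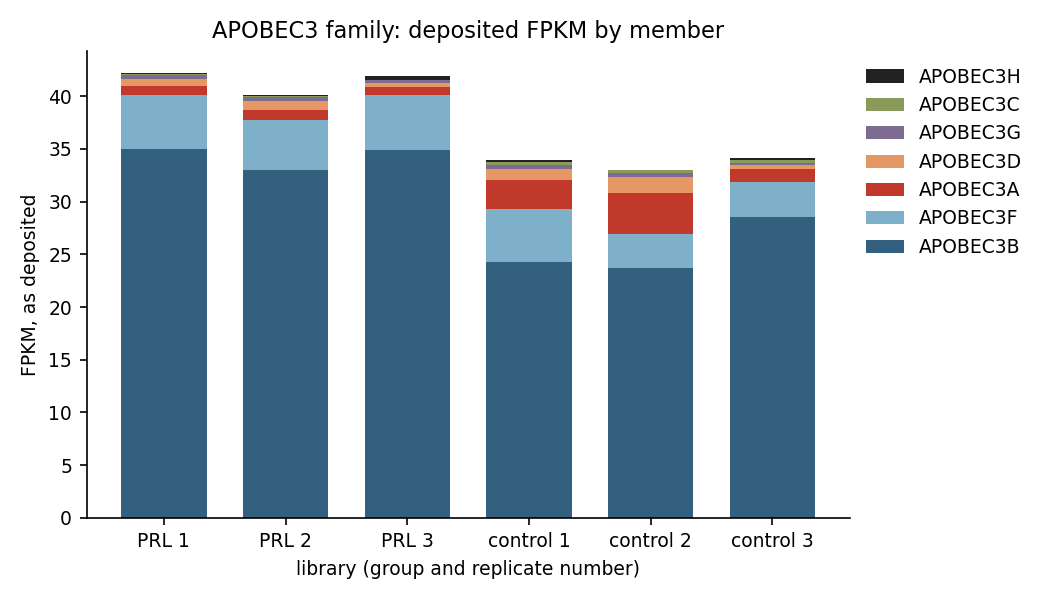
Deposited FPKM (vertical axis, linear from 0) of the 7 APOBEC3 genes, stacked for each of 3 PRL and 3 control libraries. APOBEC3B fills 82.4% to 83.2% of the bars in PRL libraries and 71.4% to 83.5% in control libraries, and the summed height is 40.13 to 42.21 in PRL libraries and 33.03 to 34.15 in control libraries.

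APOBEC3F came second in level, with 4.99 ± 0.266 FPKM in PRL cells and 3.87 ± 1.03 FPKM in control cells (SD, n = 3 each). In PRL cells the order by mean FPKM was APOBEC3B, APOBEC3F, APOBEC3A, APOBEC3D, APOBEC3G, APOBEC3H and APOBEC3C. The libraries of APOBEC3A and APOBEC3D overlapped, as did those of APOBEC3D and APOBEC3G and of APOBEC3G and APOBEC3H, so those neighbours were not separated. In control cells the order was APOBEC3B, APOBEC3F, APOBEC3A, APOBEC3D, APOBEC3G, APOBEC3C and APOBEC3H. There, each gene from APOBEC3F to APOBEC3C overlapped with the next, and APOBEC3B stood above and APOBEC3H below the rest. The places of APOBEC3C and APOBEC3H rest on few counts: in PRL libraries these were 4, 3 and 0 for APOBEC3C and 2, 2 and 5 for APOBEC3H. Most are at or under the 3 counts that a count of 0 allows, so their order there is not settled.

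APOBEC3A, the most active DNA deaminase of the family in biochemical assays, lies at chr22:38952741-38992778 (NCBI gene 200315). It had 18, 20 and 16 counts in PRL libraries, against 62, 82 and 27 in control libraries. In CPM, counts scaled to TMM library sizes, these were 0.997, 1.10 and 0.913 in PRL libraries, against 4.20, 5.23 and 1.68 in control libraries. The PRL libraries were close together and all below the control libraries, of which replicate 3 was far lower than the other two. Groups that did not overlap, with PRL lower, were found for 33.5% of tested genes. The log2 fold change was −1.87 (SE 0.39, 95% interval −2.73 to −1.01), with an adjusted p of 0.00171 in edgeR. Of all tested genes, 0.675% had a log2 fold change as low or lower. The ratio of summed counts, scaled to TMM library sizes, was 0.273, with an exact 95% interval of 0.197 to 0.373 for counting error alone. APOBEC3A passed in 18 of 18 alternative analyses, with log2 fold changes of −2.21 to −0.89. The smallest were on log2(FPKM + 1) and log2(TPM + 1), where the pseudocount understates the change of low genes. The FPKM alternatives kept genes with a mean of at least 1, which APOBEC3A met only through its control libraries. These had 2.79, 3.86 and 1.24 FPKM, against 0.88, 0.96 and 0.76 FPKM in PRL libraries. APOBEC3A could hardly have come out higher there, which limits what those passes can show.

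APOBEC3B, at chr22:38982347-38992804 (NCBI gene 9582), is the member best known for raised levels in breast tumours. It had 882, 843 and 872 counts in PRL libraries, against 649, 592 and 745 in control libraries. The TMM CPM were 48.8, 46.4 and 49.8 in PRL libraries and 44.0, 37.8 and 46.5 in control libraries. The lowest PRL library and the highest control library, replicate 3, were nearly level, so the groups overlapped. The log2 fold change was 0.18 (SE 0.09, 95% interval −0.02 to 0.38) and did not pass, with an adjusted p of 0.108 in edgeR. It passed in 6 of 18 alternatives: upper quartile factors (0.23), library totals (0.43), log2(FPKM + 1) (0.42), log2(FPKM + 0.1) (0.43), log2(TPM + 1) (0.62) and without control replicate 3 (0.26). The direction was the same in all 18. Those scalings also moved the median of all genes, to 0.26 with library totals, 0.20 with FPKM and 0.39 with TPM. Relative to that median, APOBEC3B was 0.17 higher with TMM, 0.17 with library totals, 0.22 with FPKM and 0.23 with TPM.

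The sum of APOBEC3A and APOBEC3B does not depend on how reads were divided between them. It was 901, 863 and 888 counts in PRL libraries, against 710, 673 and 772 in control libraries. In TMM CPM the sum was 49.9, 47.5 and 50.7 in PRL libraries, against 48.2, 42.9 and 48.2 in control libraries, so on that scale the groups overlapped. The ratio of the pair was less settled: there were 47.9, 41.4 and 53.9 APOBEC3B counts per APOBEC3A count in PRL libraries, against 10.5, 7.26 and 27.7 in control libraries. All 3 PRL ratios were above all 3 control ratios. Control replicate 3 held the lowest APOBEC3A and the highest APOBEC3B count of its group. Whether the division of shared reads plays a part in that was not tested.

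APOBEC3C, a small cytoplasmic and nuclear deaminase with weak activity against HIV, lies at chr22:39014083-39020352 (NCBI gene 27350). It had 4, 3 and 0 counts in PRL libraries, against 15, 12 and 14 in control libraries. The TMM CPM were 0.221, 0.165 and 0 in PRL libraries and 1.02, 0.765 and 0.874 in control libraries. It was low in every library and lower in all 3 PRL libraries, 1 of which held none. A count of 0 there allows up to 3 counts, or 0.171 CPM. The log2 fold change was −2.69 (SE 0.57, 95% interval −3.96 to −1.43), with an adjusted p of 0.00195 in edgeR. The scaled ratio of summed counts, from 7 counts in all PRL libraries and 41 in all control libraries, was 0.148, with an exact 95% interval of 0.0559 to 0.332. Of all tested genes, 0.263% had a log2 fold change as low or lower. APOBEC3C passed in 14 of 14 alternatives that tested it, at −3.28 to −2.15, and was under the filter in the others. With so few counts in PRL libraries, it passed the main filter on low counts only through its control libraries. A gene kept in that way could hardly come out higher, which limits what these passes and the 0.263% can show. Without the filter the log2 fold change was −2.71, with an adjusted p of 0.00141 in edgeR. It shared 0 exact windows of 100 bases with another member, but its coding sequence was 90.5% identical to part of APOBEC3D and 90.3% to part of APOBEC3F.

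APOBEC3F, at chr22:39040604-39053910 (NCBI gene 200316), is packaged into HIV particles lacking Vif and mutates the viral DNA. It had 282, 267 and 251 counts in PRL libraries, against 212, 185 and 173 in control libraries. The TMM CPM were 15.6, 14.7 and 14.3 in PRL libraries and 14.4, 11.8 and 10.8 in control libraries. All PRL libraries were above control replicates 2 and 3, while the lowest PRL library was just under control replicate 1. The log2 fold change was 0.27 (SE 0.12, 95% interval 0.01 to 0.54). With an adjusted p of 0.0687 in edgeR it did not pass (unadjusted p 0.0456 in edgeR). It passed in 4 of 18 alternatives: upper quartile factors (0.32), library totals (0.54), log2(TPM + 1) (0.51) and without control replicate 1 (0.40). The direction was the same in all 18. Deposited FPKM separated the groups less, with 5.06, 4.70 and 5.22 in PRL libraries, against 5.06, 3.22 and 3.34 in control libraries. The length implied by counts and FPKM was 3.41, 3.41 and 2.96 kb in PRL libraries and 2.41, 3.49 and 3.06 kb in control libraries. Control replicate 1, which had the shortest implied length, had the highest FPKM of its group. For APOBEC3B the implied length was nearly constant, at 1.53 to 1.54 kb in PRL libraries and 1.52 to 1.54 kb in control libraries.

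APOBEC3D, at chr22:39021113-39033276 (NCBI gene 140564), is another restriction factor for viruses without Vif. It had 24, 29 and 18 counts in PRL libraries, against 38, 53 and 13 in control libraries. The TMM CPM were 1.33, 1.60 and 1.03 in PRL libraries and 2.58, 3.38 and 0.811 in control libraries. Control replicates 1 and 2 were above every PRL library and control replicate 3 was below every one of them. The log2 fold change was −0.76 (SE 0.43, 95% interval −1.71 to 0.18), with an adjusted p of 0.141 in edgeR. Without control replicate 3 it was −1.16, with an adjusted p of 0.00283 in edgeR, the only alternative of 16 in which APOBEC3D passed. The range over all 16 was −1.16 to −0.17. Control replicate 3 was thus the lowest control library for both APOBEC3A and APOBEC3D. For APOBEC3A, its absence moved the log2 fold change to −2.21 and the call was kept. The sum of APOBEC3D and APOBEC3F, which does not depend on how their shared reads were divided, was 307, 296 and 268 counts in PRL libraries, against 250, 237 and 186 in control libraries. In TMM CPM that sum was 16.98, 16.3 and 15.3 in PRL libraries, against 16.97, 15.1 and 11.6 in control libraries, which overlap.

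APOBEC3G, at chr22:39077005-39087743 (NCBI gene 60489), is the founding antiviral member of the family. It had 12, 15 and 11 counts in PRL libraries, against 13, 13 and 8 in control libraries. The TMM CPM were 0.664, 0.826 and 0.628 in PRL libraries and 0.881, 0.829 and 0.499 in control libraries, so the groups overlapped. The log2 fold change was −0.05, with an adjusted p of 0.903 in edgeR. Its 95% interval of −0.81 to 0.71 spans changes of over 1.5-fold in either direction, which could not be seen at this depth. Its sign turned in 4 of 14 alternatives, among them library totals (0.20).

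APOBEC3H, at chr22:39097224-39104067 (NCBI gene 164668), is the most divergent member and varies in stability between human haplotypes. It had 2, 2 and 5 counts in PRL libraries, against 3, 1 and 3 in control libraries. Most of these are at or under 3 counts, the level that a count of 0 allows. The scaled ratio of summed counts was 1.11, with an exact 95% interval of 0.368 to 3.51. Without the filter on low counts the log2 fold change was 0.13, with an adjusted p of 0.901 in edgeR. A change could not be detected at this depth.

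**Figure D3:**
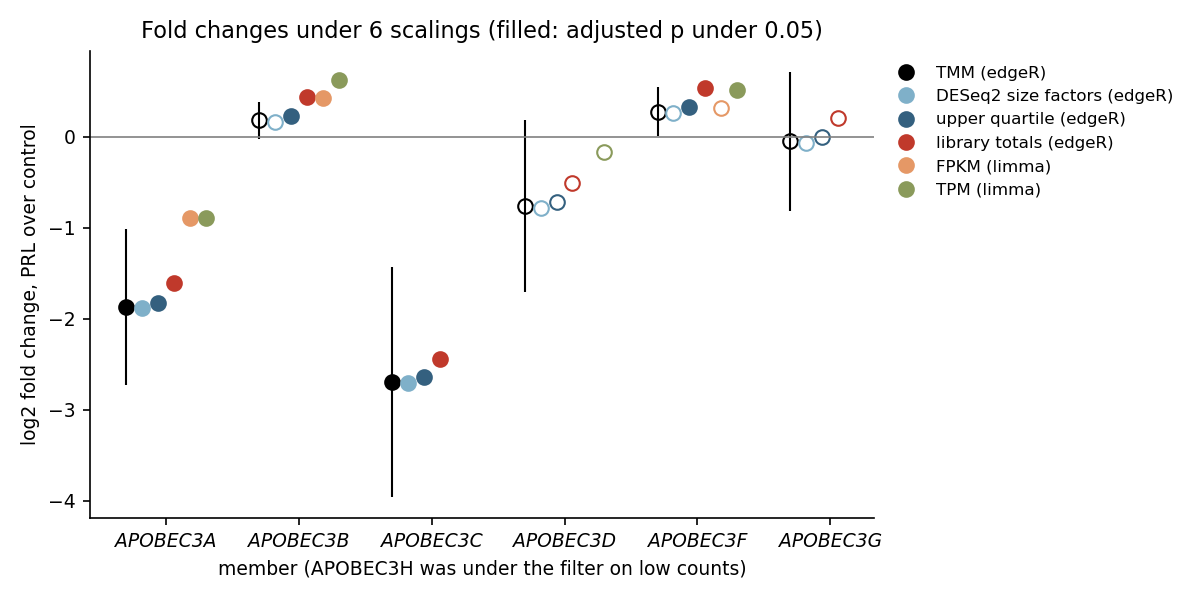
Log2 fold change, PRL over control (vertical axis), of the 6 tested APOBEC3 genes under 6 scalings, 4 of counts by edgeR and 2 of log2(value + 1) by limma. Filled points had an adjusted p under 0.05, and lines are 95% intervals with TMM. APOBEC3A and APOBEC3C are filled under every scaling that tested them, while APOBEC3B and APOBEC3F lie above 0 and are filled only under some, such as library totals (0.43 and 0.54). The filter on FPKM kept APOBEC3A only through its control libraries, as the main filter on low counts kept APOBEC3C.

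The genes most like each member over the 6 libraries were found by Euclidean distance between mean-centred log2 CPM. The nearest to APOBEC3A was ZASP, at a distance of 0.444, followed by CORT and BATF. Among those nearest to APOBEC3C were SUPT20HL1, at 0.856, and GNGT1, at 0.903. APOBEC3D was nearest to KCNJ5, at 0.306, followed by TXK and ITGAX. APOBEC3B, APOBEC3F and APOBEC3G, whose levels differed least between groups, had nearer matches. APOBEC3B was 0.0593 from SUCLA2, followed by DNAJB6 and EFNB1, and APOBEC3F was 0.0693 from PALM, followed by GALM and TMEM38A. APOBEC3G was 0.170 from NCMAP, followed by LRRC75B and METTL7B. With 6 libraries in 2 groups, many genes lie near any member, and distances of low genes also hold counting noise.

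Interferon signals through JAK-STAT proteins and IRF factors to the promoters of several APOBEC3 genes. Of 11 tested genes of this list, 8 were higher, 1 was lower and 2 did not pass, with a median log2 fold change of 0.80. Over all tested genes, 32.4% were higher and 30.5% lower. IRF7, which drives interferon transcription, averaged 103 ± 4.43 CPM in PRL cells and 8.64 ± 1.07 CPM in control cells (SD, n = 3 each), a log2 fold change of 3.57 (adjusted p 1.6e-09 in edgeR). IRF9 and STAT2, subunits of the ISGF3 complex, had log2 fold changes of 2.92 and 1.75. The groups did not overlap for any of these 3 genes. Groups that did not overlap, with PRL higher, were found for 35.9% of all tested genes. In the same libraries the members were lower (APOBEC3A, APOBEC3C) or did not pass.

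Most of the other restriction factors on the list were higher. Of 20 tested genes, 13 were higher, 4 were lower and 3 did not pass, with a median log2 fold change of 0.93. Among all tested genes, 32.4% were higher and 30.5% lower. IFI16, a sensor of nuclear DNA, averaged 15.4 ± 0.400 CPM in PRL cells and 0.238 ± 0.0446 CPM in control cells (SD, n = 3 each), a log2 fold change of 5.98 (adjusted p 4.3e-09 in edgeR). Its control libraries held 4, 4 and 3 counts, near the 3 counts that a count of 0 allows, so the size of that change is uncertain. IFI16 passed the filter on low counts only through its PRL libraries, so it could hardly have come out lower. The 13 higher genes include others kept in that way. SHFL, which blocks ribosomal frameshifting of HIV, had a log2 fold change of 3.19. SAMHD1, which depletes the nucleotides needed for reverse transcription, had one of 1.75, and SLFN5, an interferon-induced Schlafen gene, one of 1.87. Whether the members differ from these genes as a set was not tested.

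NF-kB and protein kinase C are known to raise APOBEC3B transcription, through the noncanonical RELB and NFKB2 subunits in particular. Of 13 tested genes of this list, 8 were higher, 2 were lower and 3 did not pass, with a median log2 fold change of 0.35. The shares over all tested genes were 32.4% higher and 30.5% lower. NFKB2 averaged 173 ± 5.11 CPM in PRL cells and 67.4 ± 4.75 CPM in control cells (SD, n = 3 each), a log2 fold change of 1.36 (adjusted p 3.9e-07 in edgeR). RELB averaged 11.6 ± 0.515 CPM in PRL cells and 2.78 ± 0.278 CPM in control cells, a log2 fold change of 2.05. BIRC3, a target and regulator of the pathway, had a log2 fold change of 3.05 and its relative BIRC2 one of 0.54. APOBEC3B itself had a log2 fold change of 0.18 and did not pass.

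The DREAM complex and E2F6 complexes repress APOBEC3B, and B-MYB binds at its promoter. Of 15 tested genes of this list, 2 were higher, 5 were lower and 8 did not pass, with a median log2 fold change of −0.07. Over all tested genes, 32.4% were higher and 30.5% lower, so lower calls were not particular to this list. MYBL2, which encodes B-MYB, averaged 203 ± 8.59 CPM in PRL cells and 447 ± 41.4 CPM in control cells (SD, n = 3 each), a log2 fold change of −1.14 (adjusted p 3.0e-06 in edgeR). E2F1, an activator of S-phase genes, had a log2 fold change of −0.85, and FOXM1, which acts with B-MYB in G2, one of −0.60. RBL2, the pocket protein p130 of the repressor complex, averaged 51.9 ± 1.92 CPM in PRL cells and 23.5 ± 6.90 CPM in control cells, a log2 fold change of 1.14. The split of this list turned with library totals, to 5 higher and 3 lower, and with log2(TPM + 1), to 8 higher and 2 lower. FOXM1 did not pass with TPM.

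Uracil left by APOBEC3 enzymes is excised by UNG and processed by base excision repair. Of 15 tested genes of this list, 3 were higher, 9 were lower and 3 did not pass, with a median log2 fold change of −0.33. Among all tested genes, 32.4% were higher and 30.5% lower with the same scaling. With library totals 3 were higher and 4 lower, and with log2(TPM + 1) 6 were higher and 1 lower, so the direction of this list rests on the scaling. UNG averaged 70.8 ± 1.13 CPM in PRL cells and 111 ± 11.3 CPM in control cells (SD, n = 3 each), a log2 fold change of −0.65 (adjusted p 9.6e-05 in edgeR). DUT, the dUTPase that keeps uracil out of DNA, had a log2 fold change of −0.86. TDG, another uracil glycosylase, had one of −0.52 and the endonuclease APEX2 one of −0.50. UNG, TDG and APEX2 did not pass with TPM, while DUT did.

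Other deaminases were split. Of 7 tested genes, 2 were higher, 3 were lower and 2 did not pass, with a median log2 fold change of −0.23. As 32.4% of all tested genes were higher and 30.5% lower, such a split is not particular to this list. ADAR, the adenosine deaminase of double-stranded RNA, averaged 451 ± 9.13 CPM in PRL cells and 178 ± 1.02 CPM in control cells (SD, n = 3 each), a log2 fold change of 1.34 (adjusted p 2.3e-07 in edgeR). ADAT3, a subunit of the tRNA adenosine deaminase, averaged 8.73 ± 0.351 CPM in PRL cells and 20.7 ± 2.81 CPM in control cells. Its partner ADAT2 had a log2 fold change of 0.45, and ADAT1 had one of −0.28, which did not pass with library totals and turned positive with TPM without passing (0.16). The median of this list was 0.03 with library totals and 0.17 with TPM, with 2 higher and 1 lower in both.

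**Figure D4:**
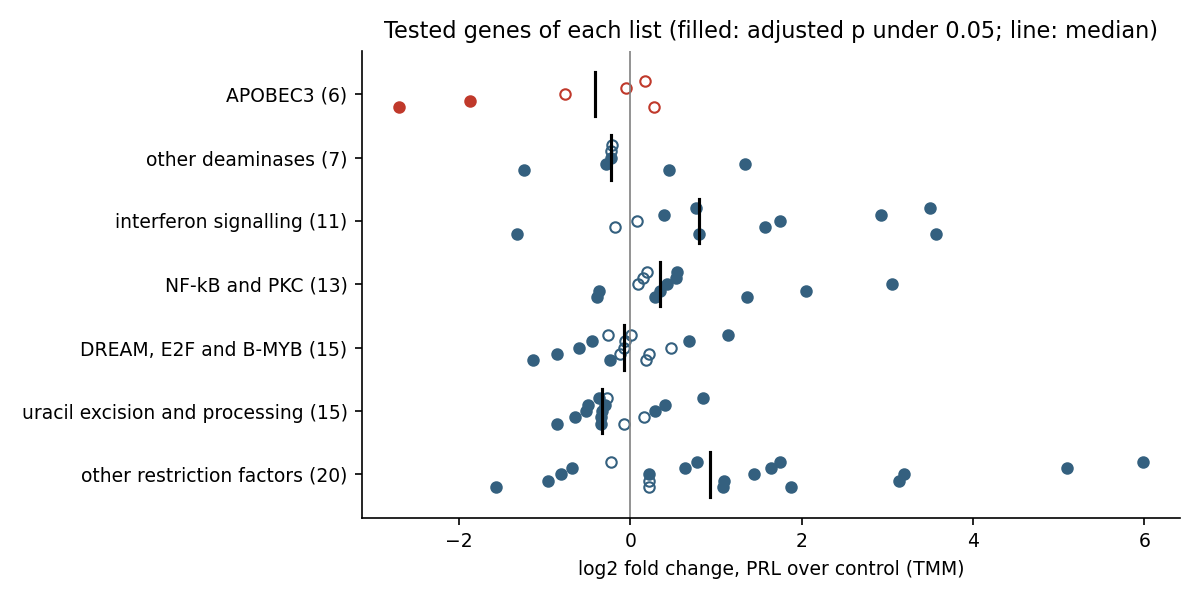
Log2 fold change, PRL over control, with TMM scaling (horizontal axis), of each tested gene in the APOBEC3 family and in 6 lists, with the number tested in parentheses, the median as a line, and filled points for an adjusted p under 0.05. The APOBEC3 median is −0.41, and the interferon signalling and other restriction factor medians are 0.80 and 0.93.

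The APOBEC3 genes form a cluster on chromosome 22, and the genes around it did not move in 1 direction. Among the 6 nearest measured genes on each side, 6 were higher, 2 were lower and 4 did not pass, with a median log2 fold change of 0.21. Over all tested genes, 32.4% were higher and 30.5% lower. CBX6, a Polycomb chromodomain gene 85.4 kb before APOBEC3A, had a log2 fold change of −0.80 (adjusted p 3.6e-04 in edgeR). CBX7, its relative 26.7 kb after APOBEC3H, had one of 0.59 (adjusted p 5.6e-04 in edgeR). The nearest measured genes on the flanks thus changed in opposite directions. With both directions this common among tested genes, that is not particular to the cluster. Farther out, MGAT3 (1.44), GTPBP1 (0.52), PDGFB (0.43), DNAL4 (0.40) and NPTXR (0.35) were higher and the ribosomal protein gene RPL3 (−1.11) was lower. MGAT3 had only 5, 6 and 5 counts in control libraries, against 19, 20 and 12 in PRL libraries. It passed the filter on low counts only through its PRL libraries, so it could hardly have come out lower. The stricter filter on CPM removed MGAT3 and left 11 neighbours, of which 5 were higher and 2 lower. JOSD1, SUN2, SYNGR1 and TAB1 lay between −0.16 and 0.06 and did not pass. Within the cluster, the lower members APOBEC3A and APOBEC3C flank APOBEC3B, which did not pass.

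**Figure D5:**
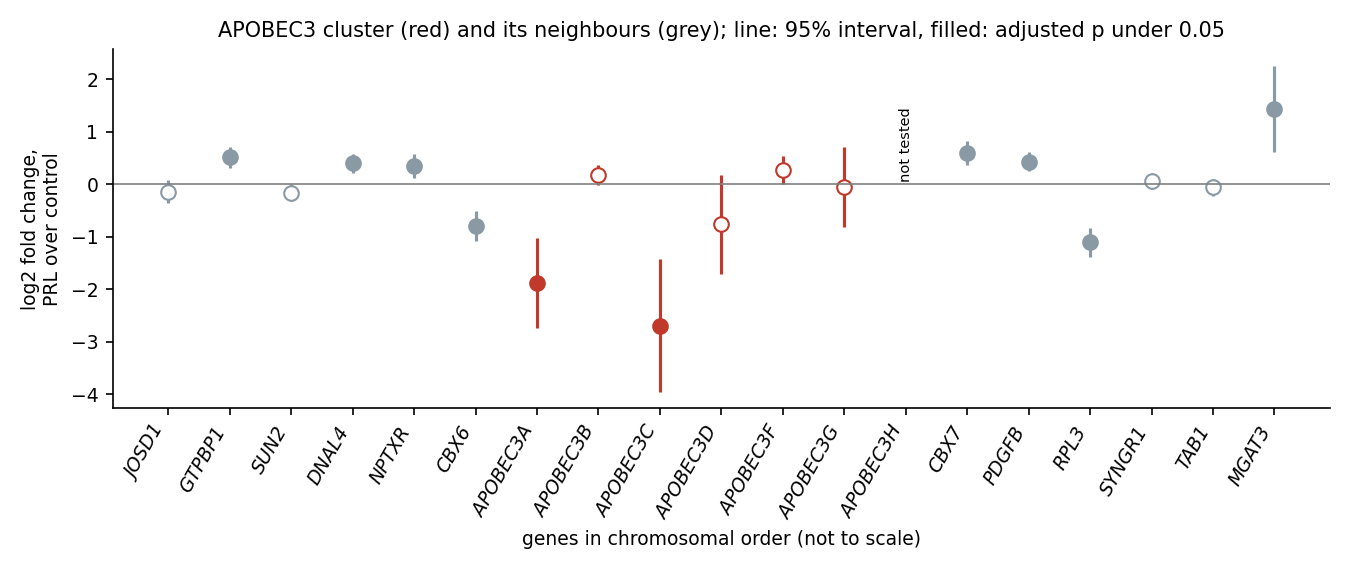
Log2 fold change, PRL over control (vertical axis), with 95% intervals, of the 6 tested APOBEC3 genes (red) and 6 measured genes on each side (grey) in chromosomal order, not to scale, with filled points for an adjusted p under 0.05 and no point for APOBEC3H, which was not tested. APOBEC3A (−1.87) and APOBEC3C (−2.69) lie lowest, with APOBEC3B (0.18) between them.

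Several APOBEC3 genes are expressed by immune cells, so markers of other cell types were read in the same libraries. All 12 luminal markers were measured, of which 5 were higher, 4 were lower and 3 did not pass. Such a mix is not particular to them, since 32.4% of all tested genes were higher and 30.5% lower. Of 15 immune markers in the table, 8 had under 10 counts in every library. The summed level of the 15 was 34.8 to 38.3 CPM in PRL libraries and 24.6 to 36.9 CPM in control libraries. KLRD1 had the most in control libraries, with 14.2 to 22.8 CPM there and 11.4 to 12.6 CPM in PRL libraries. The other 14 summed to 23.5 to 25.7 CPM in PRL libraries and 10.4 to 14.2 CPM in control libraries. Most of that difference lay in CD68, with 14.7 to 15.6 CPM in PRL libraries and 2.99 to 3.86 CPM in control libraries. Of the 7 tested, 3 were higher, 2 were lower and 2 did not pass, beside the same shares of 32.4% and 30.5% over all tested genes. Of the higher ones, CD14 and CD3E were kept by the filter on low counts only through their PRL libraries. CD14 had 15, 16 and 18 counts there, against 4, 9 and 4 in control libraries. CD3E had 19, 19 and 19, against 9, 11 and 5. With DESeq2, 1 immune marker was higher and 2 were lower. Of 8 stromal markers, 6 had under 10 counts in every library, and the summed level was 72.5 to 73.0 CPM in PRL libraries and 43.5 to 60.7 CPM in control libraries. COL1A1 alone made up 71.2 to 71.4 CPM of it in PRL libraries and 42.3 to 58.7 CPM in control libraries, and the other 7 summed to 1.31 to 1.54 CPM in PRL libraries and 1.19 to 1.98 CPM in control libraries. Their part in the APOBEC3 values was not tested.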

How the data were processed

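Total RNA of 6 T47D libraries (3 PRL, 3 control) was prepared with Trizol for Illumina sequencing, per the labels. The aligners Bowtie2 2.3.4.3 and HISAT2 2.1.0 and, as genome build, GRCh38.p13 are named in the submitters' processing notes. No source used here gives the counting tool, strand use or read length. The authors estimated counts per gene before deposit: 44.1% to 45.9% of the deposited expected counts per library were not whole. They also deposited FPKM values and TPM values, scaled to length and library or transcript total, per the file headers.

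Expected counts were rounded and tested in R 4.3.3 with edgeR 4.0.16 (robust quasi-likelihood fit, group as the only term, filter on low counts by group, TMM scaling). P-values were adjusted by Benjamini-Hochberg over 14076 genes and called under 0.05. Standard errors are the absolute log2 fold change over the root of F. CPM use TMM-scaled library sizes. Count ratios carry exact binomial 95% intervals, and a count of 0 allows 3 counts, 0.165 to 0.203 CPM per library. Both cover counting error only, since PCR copies are not independent molecules. The members, lists and tests were chosen with earlier results of these data known. Genes named were all members, the 4 with the smallest adjusted p in each of 6 lists, 6 neighbours per side of the cluster, the 3 most alike per member (log2 CPM, prior count 2), and PRL. The script was checked on simulated counts, in which 13724 of 13920 tested genes were left unchanged. Of those 13724, 12 were called, and of 66 genes changed 1.5-fold, 46 were. With so few changed genes, that check could not bear on the choice of scaling in these data. Alternatives were DESeq2 1.42.0, limma 3.58.1 (voom, or log2 FPKM with a pseudocount of 1 or 0.1 and log2 TPM with 1, for genes with a mean of at least 1), other scalings, other filters (none, or CPM of at least 1 in 3 libraries), unrounded counts, a replicate block and each library left out. Positions, exon overlaps and sequences are from GENCODE 29 on GRCh38, with coding sequences aligned locally in Biopython 1.88. Neighbours are from RefSeq. Of the listed genes, APOBEC1 and CD3D were not analysed here. Values of some genes chosen by this rule are left out of the text, while list counts include them.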

Additional observations from a re-analysis of the deposited data

How the results depend on the processing

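APOBEC3A was lower and passed in 18 of 18 alternatives, and APOBEC3C in 14 of 14 that tested it. Where a filter on low counts kept APOBEC3C, it did so through the control libraries only, as did the filter on FPKM for APOBEC3A. Against 0 members higher and 2 lower, there were 2 higher with upper quartile factors and with library totals. On log2(FPKM + 1) and on log2(FPKM + 0.1) there were 1 higher and 1 lower, and on log2(TPM + 1) 2 higher and 1 lower. The stricter filter on CPM left 1 lower, since it removed APOBEC3C, as did the filters on FPKM and TPM. With 1 library left out, 0 to 1 members were higher and 2 to 3 lower. The APOBEC3G log2 fold change of −0.05 turned to 0.20 with library totals, and with 1 library left out it ranged from −0.25 to 0.10, positive at 0.02 without PRL replicate 3, 0.10 without control replicate 1 and 0.04 without control replicate 2. The cause of these shifts was not tested. Over all genes, 4300 lower calls became 2394 with library totals, 2356 and 2343 on FPKM with pseudocounts of 1 and 0.1, and 1375 on TPM, where 7118 were higher. With 1 library left out, 3929 to 5264 genes were higher and 3653 to 4688 lower. Deviations of libraries with the same replicate number correlated at −0.105 to 0.0428, and 1 of 3 PRL libraries correlated best with its own number. With the replicate block, 0 members were higher and 2 lower, at −1.81 for APOBEC3A and −2.72 for APOBEC3C, and 4423 of all genes were higher and 4108 lower, so the block changed no member call. Depth limits APOBEC3C, APOBEC3G and APOBEC3H most, with at most 15 counts per library each.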

Other observations

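APOBEC2 and APOBEC4, relatives of the APOBEC3 genes, were near the limit of detection in these cells, and their values were read after those of the members were seen. APOBEC2, a muscle protein with no known deaminase activity on DNA in cells, had 4, 4 and 4 counts in PRL libraries, against 10, 7 and 0 in control libraries. APOBEC4 had 4, 3 and 2 counts in PRL libraries, against 3, 4 and 4 in control libraries. Both genes were under the filter on low counts and were not tested.

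APOBEC3F and APOBEC3G share their first 142 coding bases exactly. Their summed counts were 295, 281 and 262 in PRL libraries, against 225, 197 and 181 in control libraries. In TMM CPM they were 16.3, 15.5 and 14.9 in PRL libraries, against 15.2, 12.6 and 11.3 in control libraries, and PRL replicate 3 lay under control replicate 1. The number of APOBEC3F counts per APOBEC3D count was 11.6, 9.18 and 14.2 in PRL libraries, against 5.57, 3.49 and 13.4 in control libraries, where replicate 3 again stood apart.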
